A study of Mus musculus with 2 samples.

Results

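The genes described here are the 10 mouse genes for proteins whose activity depends on the cell's NAD+ or NADH. They are the 7 sirtuins Sirt1 to Sirt7, the C-terminal binding protein genes Ctbp1 and Ctbp2, and Parp1. They were chosen by name, and every probe whose RefSeq accession belongs to one of them was taken, which gave 13 of the 39429 probes and 10 of the 20618 named genes on the array. The study compared leukaemic cells sorted into a SoNar-high and a SoNar-low group. SoNar is a fluorescent protein sensor that is excited at different wavelengths depending on the cytosolic balance of NADH and NAD+, and the sort used the ratio of its fluorescence on excitation by a violet and by a blue laser. Both groups are B-ALL cells (acute lymphoblastic leukaemia of the B cell lineage) from the bone marrow of C57BL mice of 8 weeks of age, and neither had a further treatment in the labels. The titles call the SoNar-high sample N-myc-high and the SoNar-low sample N-myc-low, and the labels do not explain these names. How the leukaemia was induced, and whether RNA of several mice was pooled, is not given in the sources used here.

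Total RNA of each group was labelled with Cy3 and hybridised to 1 Agilent 1-colour array, so there were 1 SoNar-high and 1 SoNar-low array and no replicates. No test was possible, and each value below describes these 2 arrays. They were scanned in different sessions, and scan session and group cannot be told apart. The software called 31352 of 43020 gene spots well above background for SoNar-high and 19291 for SoNar-low, and 0 spots were saturated. Of 14 genes listed as B lineage markers, 11 were detected on both arrays, among them Ebf1 and Ptprc, and Igll1, Rag1 and Rag2 were above background in neither group. Ptprc is not confined to B cells. Levels are log2 of the processed signal relative to the array's 75th percentile, which was 525 in SoNar-high and 475 in SoNar-low, and every difference is SoNar-high minus SoNar-low. Signals are given before this scaling, so a slightly higher SoNar-high signal can go with a difference just below 0. A difference of at least 1 on this log2 scale, which is 2-fold, was called higher or lower. In a sorted population, fewer cells that express a gene and less RNA per cell cannot be told apart.

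Sirtuins remove acetyl and other acyl groups from proteins and consume an NAD+ molecule for each group removed, so their activity follows the supply of NAD+. PARP1 also consumes NAD+, which it turns into chains of ADP-ribose at DNA breaks. CtBP proteins are corepressors that bind NAD(H) and assemble into their active form when they do so, and are therefore described as sensors of nuclear NADH. CtBP and SIRT1 are linked in a circuit described in human cells, in which the repressor HIC1 recruits CtBP to the SIRT1 promoter. An array measures transcripts and none of these activities.

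No member differed 2-fold by its probes detected on both arrays. Sirt2 was the highest, at 0.85 (1.81-fold higher in SoNar-high), and Sirt3 and Sirt1 were the lowest, both at -0.77 (1.70-fold lower in SoNar-high). Ctbp2 stood at -0.69, Sirt5 at -0.46, Sirt7 at -0.45, Ctbp1 at -0.38 and Sirt4 at -0.07, while Parp1 stood at 0.13 and Sirt6 at 0.20. Of the 10 genes, 3 were above 0 and 7 below. The median of the members was -0.42, beside a median of -0.17 over all 10517 genes measured on both arrays. Against the 0 members that were at least 2-fold higher or lower stand 4.87% of all measured genes that were higher and 1.68% that were lower, so a count of 0 among 10 genes is near the background. Of all measured genes, 36.8% were above 0.

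**Figure D1:**
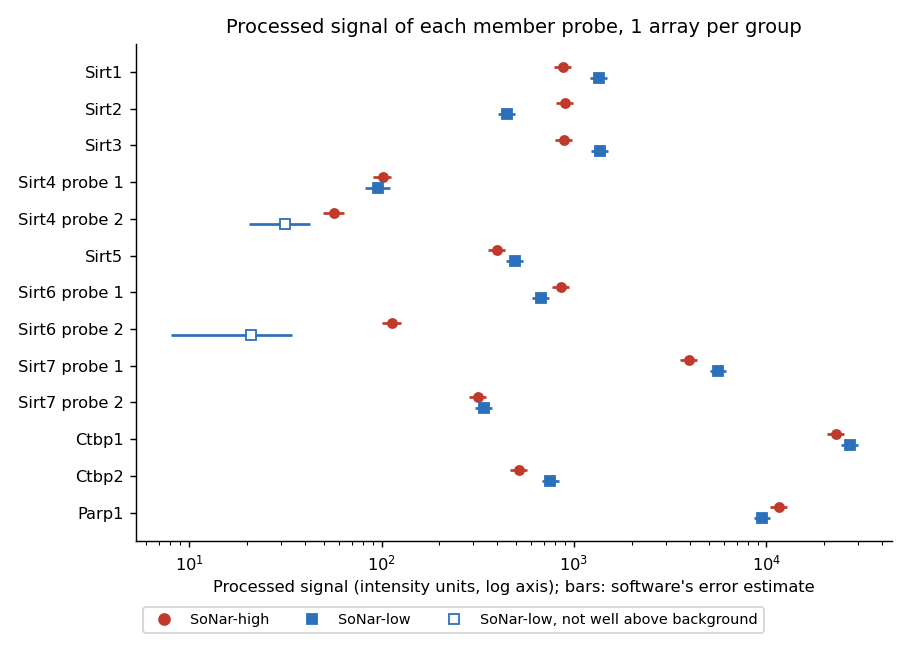
Processed signal of the 13 member probes in intensity units on a log axis, with circles for the SoNar-high array, squares for the SoNar-low array and bars for the software's error estimate of each spot; open squares were not well above background. Sirt2, Sirt4, Sirt6 and Parp1 have the SoNar-high symbol to the right, and the Sirt1, Sirt3 and Ctbp2 symbols are clearly apart the other way.

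The promoters of Sirt1 and Sirt2 are shown because these genes lie at opposite ends of the members' differences and because the promoter of Sirt1 is the one named in the circuit with CtBP. Each sequence is the 250 bases before the annotated start, from RefSeq on the GRCm38.p6 build. Capitals mark matches on either strand to the GC box GGGCGG, the CCAAT box and the core TGACG of the cAMP response element, and matches may overlap one another. The array annotation is of another build (mm9), so these coordinates belong to the reference table only.
Sirt1 (chr10:63339036-63339285, minus strand): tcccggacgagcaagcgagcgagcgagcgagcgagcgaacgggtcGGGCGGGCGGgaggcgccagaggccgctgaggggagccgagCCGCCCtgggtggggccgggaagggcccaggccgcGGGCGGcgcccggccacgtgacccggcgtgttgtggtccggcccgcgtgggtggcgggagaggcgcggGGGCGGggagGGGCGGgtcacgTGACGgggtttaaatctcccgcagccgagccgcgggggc
Sirt2 (chr7:28766502-28766751, plus strand): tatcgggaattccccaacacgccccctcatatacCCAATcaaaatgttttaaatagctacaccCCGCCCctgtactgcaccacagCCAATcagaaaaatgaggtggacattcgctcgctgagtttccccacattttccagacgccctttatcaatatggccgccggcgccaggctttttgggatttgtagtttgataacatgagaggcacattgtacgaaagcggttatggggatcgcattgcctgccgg

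The sequences differ in base composition. The Sirt1 window had 79.2% G and C with 39 CpG pairs, and the Sirt2 window 50% with 13 CpG pairs. The Sirt1 window held 6 GC boxes, 1 TGACG core and 0 CCAAT boxes, and the Sirt2 window 1 GC box, 2 CCAAT boxes and 0 TGACG cores. GC boxes are common in such windows: 32.7% of 32851 promoters hold one, as do 33.8% for CCAAT and 17.8% for TGACG. The members have 13 annotated starts, of which 8 held a GC box, 5 a CCAAT box and 3 the TGACG core. These counts per window are the ones to set beside the shares above. Counted by gene, 8 of the 10 members had a GC box, 4 a CCAAT box and 3 the TGACG core in at least 1 start. The HIC1 motif GGGCANCC was found in 4.53% of all windows and, among the members, in that of Sirt6 alone. The full cAMP element TGACGTCA, found in 1.55% of windows, was in 0 member windows. These matches are letters in a window and say nothing of binding in these cells.

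Sirt2 is the mainly cytoplasmic sirtuin, known as a deacetylase of tubulin. Its single probe (A_52_P547447) had a processed signal of 894 on the SoNar-high array, against 447 on the SoNar-low array. The software's own error was 89.5 in SoNar-high and 45.8 in SoNar-low, which carries over to an error of 0.21 on the log2 difference of 0.85. This error covers the spot only and not the spread between cell samples. The Sirt2 difference exceeded the median of all genes by 1.02, and 93.3% of measured genes had a lower value. It was at least 2-fold with cyclic loess (1.00) and with detected-spot scaling (1.07), which takes the 75th percentile only from spots above background in both groups, and was 0.24 with median scaling.

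Sirt2 was set against the other members within the arrays, a comparison that a constant shift of all genes cannot move. Its difference exceeded that of Sirt1 and of Sirt3 by 1.62, that of Ctbp2 by 1.54, that of Sirt5 by 1.31 and that of Sirt7 by 1.30, with errors of 0.25 to 0.29 from the spot estimates. The gap to Ctbp1 was 1.24, that to Sirt4 0.92, that to Parp1 0.72 and that to Sirt6 0.66. Over all 11 alternative settings the gap to Sirt1 stayed between 1.41 and 1.62, and that to Parp1 between 0.57 and 0.72. Only quantile normalization, cyclic loess, normexp (a background correction) and the authors' deposited table could move these gaps. Each of these genes has 1 probe, detected on both arrays, so the filters leave it unchanged, and the other scalings shift all genes alike. The gap to Sirt6 turned to -0.39 in the 2 settings that admit the second Sirt6 probe, described below.

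**Figure D2:**
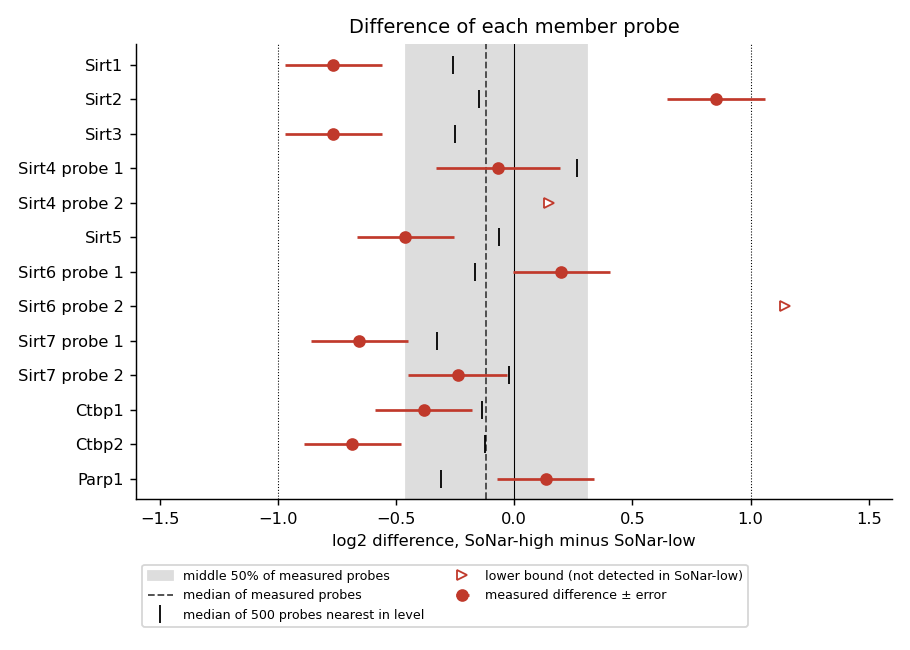
Difference on the log2 scale (SoNar-high minus SoNar-low) for each member probe, with the error from the software's spot estimates. The grey band holds the middle 50% of measured probes, from -0.46 to 0.31. Ticks give the median of the 500 probes nearest in level, and open triangles are approximate lower bounds. Sirt2 lies to the right of the band, while Sirt1, Sirt3, Ctbp2 and the first Sirt7 probe lie to its left, and Sirt5 at its left edge.

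The nuclear sirtuins did not share a direction. Sirt1, which deacetylates histones and factors such as p53 and FOXO proteins, had a signal of 878 in SoNar-high, against 1350 in SoNar-low. Its difference of -0.77 ± 0.20 (the spot error) lay 0.60 below the median of all genes. Sirt6, which acts on histone H3 and at telomeres and restrains glycolytic genes, had 853 in SoNar-high and 672 in SoNar-low from the probe that was detected on both arrays, a difference of 0.20 ± 0.21. The gap of Sirt1 to Sirt6 was -0.96.

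Sirt6 has a second probe that gave another picture. Probe A_55_P2185794 carries the same RefSeq accession and had a signal of 113 in SoNar-high, against 21.1 in SoNar-low. The software's error was 12.4 in SoNar-high and 13.1 in SoNar-low. It was not well above background on the SoNar-low array, so only a bound can be given, set against that array's lowest detected signal of 46.4. Some brighter probes were also not detected there, such as a Parp6 probe at 56.6, so the bound is approximate. By this bound Sirt6 was 2.21-fold higher in SoNar-high, 1.14 on the log2 scale, which becomes 0.53 with median scaling. This was 1 of 2 member probes detected for SoNar-high alone, as were 28.7% of all probes, and 6.77% of those had a bound of at least 2-fold. The probes of Sirt6 thus gave a difference near 0 and an approximate bound of 2.21-fold, and which of them follows the Sirt6 transcript was not tested.

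Sirt7, the nucleolar sirtuin known for its role in ribosomal RNA transcription, also has a pair of probes with the same accession. The brighter probe (A_51_P352264) had 3951 in SoNar-high and 5626 in SoNar-low, a difference of -0.66. The dimmer probe (A_55_P2045697) had 319 in SoNar-high and 340 in SoNar-low, a difference of -0.24. Both were lower in SoNar-high, and their gap of 0.42 was like that of other genes: among 2021 genes with exactly 2 measured probes, the median gap was 0.43, and in 45.4% of them the probes had opposite signs. The Sirt7 gap was -0.09 with quantile normalization and -0.07 in the authors' deposited table, against -0.42 here.

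The mitochondrial sirtuins were all below 0, by unequal amounts. Sirt3, the main deacetylase of the mitochondrial matrix, had a signal of 888 in SoNar-high, against 1366 in SoNar-low, and its difference of -0.77 was lower than that of all but 6.91% of measured genes. Sirt5, which removes succinyl, malonyl and glutaryl groups, had 396 in SoNar-high and 493 in SoNar-low, a difference of -0.46 ± 0.21. Sirt4, known for acting on glutamate dehydrogenase and on lipoylated enzymes, had 102 in SoNar-high and 96.4 in SoNar-low by its first probe (A_51_P424641), a difference of -0.07 ± 0.26. Its second probe (A_55_P2185372) had 56.8 in SoNar-high and 31.4 in SoNar-low, where it was not well above background. Its approximate bound was 1.11-fold higher in SoNar-high. That bound falls below 1-fold with median scaling.

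The Sirt4 signals were near the lowest detected signals, which were 19.7 in SoNar-high and 46.4 in SoNar-low, and its value differed between settings. It was -0.53 with quantile normalization, -0.47 with cyclic loess, -0.59 in the authors' deposited table and 0.32 where the second probe was admitted. The gap of Sirt3 to Sirt4 was -0.70 here and below 0 in all 11 alternatives, from -1.09 where the second Sirt4 probe was admitted to -0.02 in the authors' deposited table. The gap of Sirt3 to Sirt5, -0.31 with an error of 0.29, was about as large as its spot error.

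Both CtBP genes were below 0. Ctbp1 had a signal of 23053 in SoNar-high, against 27193 in SoNar-low, and Ctbp2 had 519 in SoNar-high, against 755 in SoNar-low. The differences were -0.38 ± 0.20 for Ctbp1 and -0.69 ± 0.21 for Ctbp2, and the gap of Ctbp2 to Ctbp1 was -0.30 with an error of 0.29. Ctbp2 lay 0.52 below the median of all genes and Ctbp1 0.22 below it, although with cyclic loess Ctbp1 was only 0.03 below. Signals of different probes are not set against each other here, since probes differ in how strongly they bind.

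Parp1 was close to the same level on the arrays. Its probe (A_51_P314277) had 11556 in SoNar-high and 9533 in SoNar-low, a difference of 0.13 ± 0.20. It lay 0.30 above the median of all genes. Its gap to Sirt1 was large by comparison, with Sirt1 0.90 lower than Parp1, and this gap stayed between -0.96 and -0.84 over the 11 alternatives. The gap of Ctbp2 to Parp1 was -0.82 and stayed between -0.95 and -0.82. Again only quantile normalization, cyclic loess, normexp and the authors' deposited table could move these gaps.

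**Figure D3:**
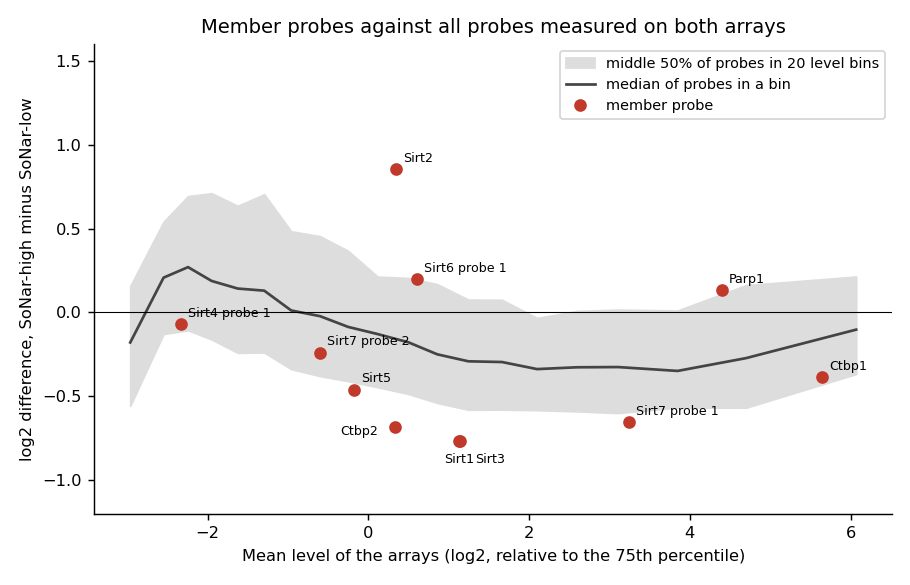
Log2 difference of the 11 member probes measured on both arrays against their mean level, with the median and the middle 50% of all measured probes in 20 level bins. The bin medians go from 0.27 among dim probes to -0.35 among bright ones and are nearer 0 at the brightest end, and Sirt2 stands above the middle 50% at its level, while Sirt1, Sirt3 and Ctbp2 are among the probes below theirs.

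The differences of all probes depended on brightness. Over 20 bins of mean level, the median difference was highest, 0.27, in the third bin from the dim end, and lowest, -0.35, in the third bin from the bright end. Each member was therefore also set beside the median of the 500 measured probes nearest to it in level. Relative to these probes Sirt2 was 1.01 higher, Parp1 0.44 higher and the first Sirt6 probe 0.36 higher. The other probes were lower than theirs, with -0.56 for Ctbp2, -0.51 for both Sirt3 and Sirt1, -0.40 for Sirt5, -0.33 for the first Sirt4 probe and for the brighter Sirt7 probe, -0.25 for Ctbp1 and -0.22 for the dimmer Sirt7 probe. The signs were those of the plain differences for every one of the 11 probes. Sirt4 was 0.10 above the median of all genes but below the probes of its own level.

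The number of members past 2-fold depended on the scaling of the arrays and on the filter on dim probes. Without the filter, or with detection on at least 1 array, Sirt6 was over 2-fold higher (1.24) through its second probe. With median scaling, which shifted the median of all genes by -0.61, 5 members were at least 2-fold lower, namely Sirt3 (-1.38), Sirt1 (-1.38), Ctbp2 (-1.30), Sirt5 (-1.07) and Sirt7 (-1.06), and Sirt2 alone stayed above 0. That setting shifted all genes alike, and 3306 genes were then lower and 139 higher. The split of called genes moved with the setting: 74.3% of them were higher in SoNar-high here, 4.03% with median scaling, 52.4% with quantile normalization, 60.7% with cyclic loess, 45.4% in the authors' deposited table and 92.3% with detected-spot scaling, which shifted the median of all genes by 0.21. Leaving out the filter on dim probes gave 61.3%, and demanding detection on at least 1 array 94.8%. Across the reported setting and the 11 alternatives 6 members (Sirt1, Sirt3, Sirt5, Sirt7, Ctbp1 and Ctbp2) were below 0 in every case, Sirt2 was above 0 in every case, and Sirt4, Sirt6 and Parp1 took both signs. Relative to the median of all genes, the same 6 lay below it and Sirt2 and Sirt6 above it in every case.

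**Figure D4:**
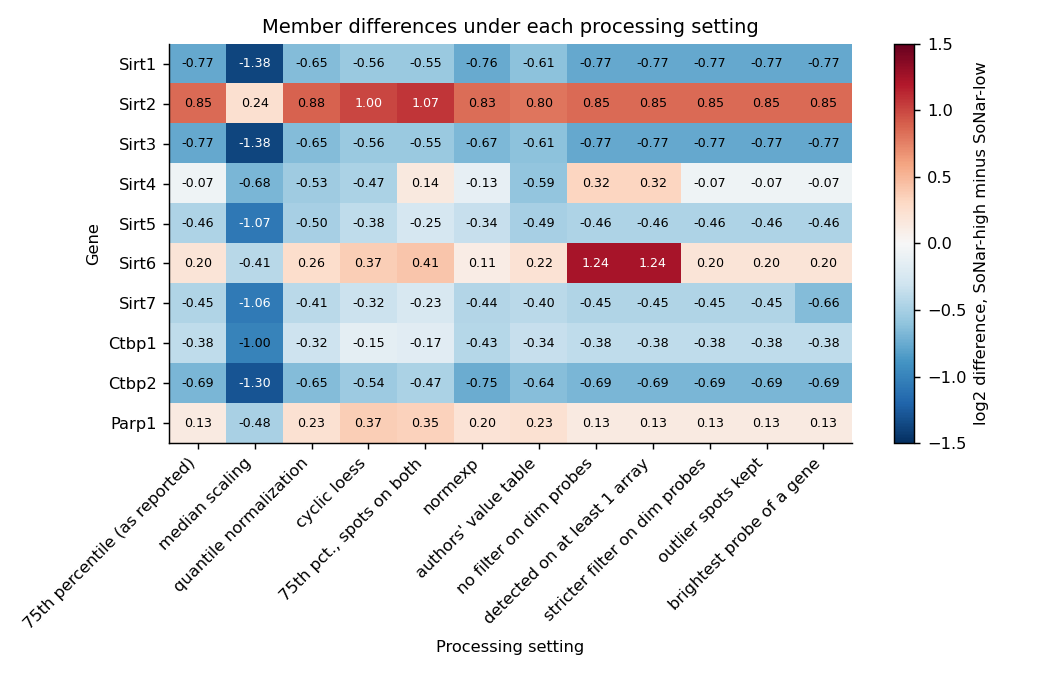
Log2 difference of each member gene (rows) under the reported setting and 11 alternatives (columns), with blue for lower and red for higher in SoNar-high. The Sirt2 row is red throughout, from 0.24 with median scaling to 1.07, and the Sirt1, Sirt3 and Ctbp2 rows are blue throughout.

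Genes that work with the members were described from lists of known partners. The lists are set beside the median of all genes only, and not beside probes of like level. In the bins with mean levels from 0.86 to 4.70, the median difference of all probes lay between -0.35 and -0.25. Whether the list medians differ from those of probes of like level was not tested. The zinc-dependent histone deacetylases do the same reaction as sirtuins without NAD+. Of 11 on the array 9 were measured on both arrays, 0 were higher and 0 lower by 2-fold, and the median was -0.16, close to that of all genes (-0.17). Hdac2, a class I enzyme found with CtBP, was the highest at 0.05 and Hdac7, a class IIa enzyme of lymphocytes, the lowest at -0.94. Of 12 NAD synthesis and NAD kinase genes on the array, 6 were measured on both arrays and 5 were detected for SoNar-high alone. Over the whole array 28.7% of probes were detected for SoNar-high alone. The 6 genes measured on both arrays had a median of -0.37. Over the 11 alternative settings the list median ran from -0.98 to 0.07 and was above 0 in 2. Nampt, which makes the NAD+ precursor in the salvage route that sirtuins and PARP1 draw on, had 1449 in SoNar-high and 2437 in SoNar-low, a difference of -0.89, and Nmnat1, the nuclear enzyme of the next step, was at 0.01.

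Among the CtBP corepressor complex and the factors that recruit it, 19 of 23 genes were measured. At the 2-fold limit 0 of these were higher and 1 lower, and 13 lay below the median of all genes, with a list median of -0.33. The lower gene was Ehmt2, the histone H3 methyltransferase G9a, with 8661 in SoNar-high and 16363 in SoNar-low from its only probe, a difference of -1.06. It was -0.95 with quantile normalization and -0.92 in the authors' deposited table, which no longer passes 2-fold. The regulators and substrates of SIRT1 had a median of -0.30 over 15 measured genes, with 0 higher and 1 lower, Ppargc1a (-1.54), a coactivator of mitochondrial genes that SIRT1 deacetylates. Its signal was 25.3 in SoNar-high and 66.7 in SoNar-low, close to the lowest detected signals of 19.7 in SoNar-high and 46.4 in SoNar-low, and with normexp it was -0.78.

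The substrates of the mitochondrial sirtuins had a median of -0.32 over 16 measured genes and none differed 2-fold, with 0 higher and 0 lower. The 16 include Slc25a26 (-0.23), which is not a listed substrate and was taken for Slc25a6 through a gene synonym. Ppif, the cyclophilin of the permeability pore, was the highest at 0.37 and Acss1, the mitochondrial acetyl-CoA synthetase that SIRT3 activates, the lowest at -0.90. Of the partners of PARP1 in single-strand break repair and in removing ADP-ribose, 12 of 13 were measured, with a median of -0.33 and again 0 higher and 0 lower. Hpf1, the cofactor that directs PARP1 to serine residues, was at -0.86, and Adprhl2, the hydrolase that removes ADP-ribose from serine, at 0.29. Hpf1 and Adprhl2 were named because they were the lowest and the highest of the list, so their opposite places are no further result. The other ADP-ribosyltransferases and NAD hydrolases had a median of -0.17 over 13 genes, with 0 higher and 1 lower. That gene was Parp6 (-1.04), whose probe detected on both arrays had 1654 in SoNar-high and 3084 in SoNar-low. Its other probe, not well above background in SoNar-low, had 161 in SoNar-high and 56.6 in SoNar-low. After scaling this was a measured ratio of 2.57-fold higher in SoNar-high. The SoNar-low signal exceeded the lowest detected one, so the ratio is not a lower bound. The measured values of the Parp6 probes thus went in opposite directions.

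**Figure D5:**
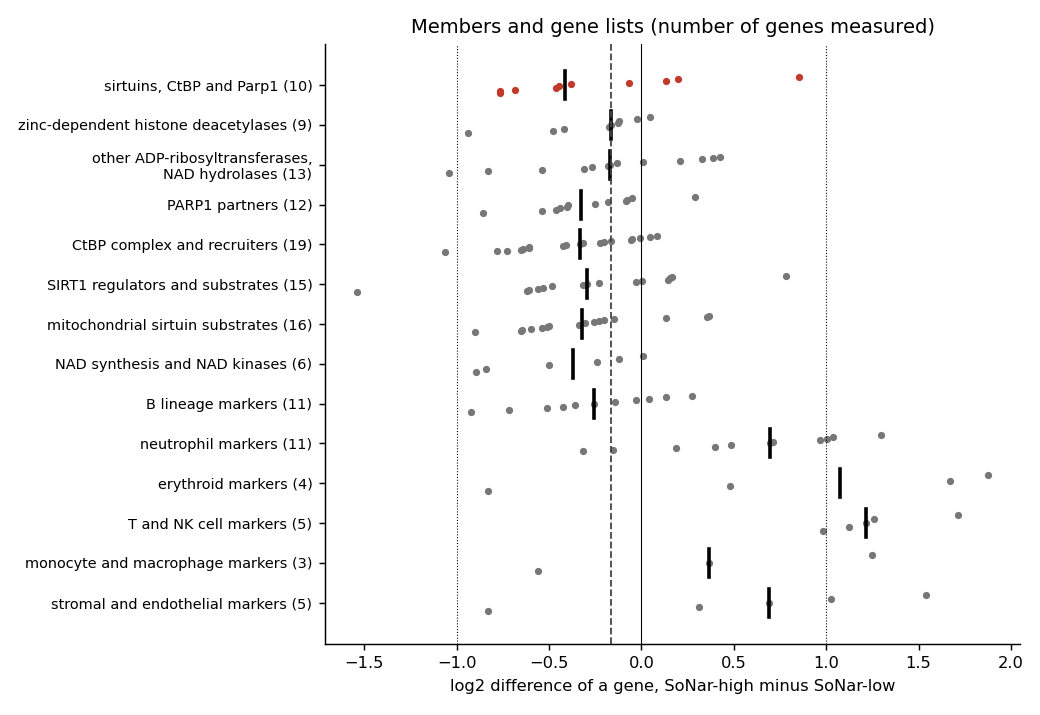
Log2 difference of each measured gene of the members (red) and of the partner and marker lists (grey), with a bar for the list median, a dashed line for the median of all measured genes (-0.17) and dotted lines at 2-fold. The partner lists have medians between -0.37 and -0.16, and the neutrophil, erythroid, T and NK, and stromal lists have medians of 0.69 to 1.22.

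Lists of markers of other marrow cells had medians above 0 in the reported setting, while their summed levels ran in both directions. Summed levels below are linear and run over all probes of a list, also those not detected, while medians are over measured genes only. The B lineage markers had a median of -0.26 over 11 measured genes, from Ebf1, a transcription factor of early B cells, at -0.92 to Ptprc at 0.27. Since Ptprc is not confined to B cells, the next highest, Pax5 at 0.14, is given as well. Neutrophil markers had a median of 0.70 over 11 of 15 genes, with 3 higher and 0 lower, such as Ngp (1.29) and Retnlg (1.04). Of the 11, 10 exceeded the median of all genes and 1, Prtn3 (-0.32), lay below it. S100a9 stood at -0.15, with 8479 in SoNar-high and 8533 in SoNar-low. The summed linear level was 51.4 in SoNar-high and 41.2 in SoNar-low. All 5 measured T and NK cell markers exceeded the median of all genes, with Cd4 (1.72) and Cd3e (1.26) among 4 that were at least 2-fold higher, and a summed level of 5.38 in SoNar-high and 2.38 in SoNar-low. Cd3d, Gzmb and Klrb1c were above background in neither group. Erythroid markers had a median of 1.07 over 4 measured genes, led by Hba-a1 (1.88) and Ermap (1.67), with a summed level of 32.1 in SoNar-high and 50.3 in SoNar-low. The sum ran the other way through Hemgn, the lowest measured member at -0.83, whose bright probe had 14153 in SoNar-high and 22791 in SoNar-low. Monocyte markers had a median of 0.37 over 3 measured genes, with Csf1r at 1.25, Mrc1 the lowest at -0.56 and Ccr2 above background in neither group, and summed levels of 2.04 in SoNar-high and 1.29 in SoNar-low. For 5 stromal and endothelial markers the median was 0.69, with Kdr at 1.54, Lepr at 1.02, Cxcl12 above background in neither group, and summed levels of 18.1 in SoNar-high and 28.2 in SoNar-low. That sum was carried by Alpl, the lowest measured member at -0.83, with 7773 in SoNar-high and 12517 in SoNar-low. Prtn3, S100a9, Hemgn, Mrc1 and Alpl were named after their values were seen. Cd4 and Kdr each rest on 1 of 2 probes, Ermap on 1 of 3, Lepr on 1 of 4 and Csf1r on 2 of 3. Their remaining probes were not well above background in SoNar-low. Over the 11 alternative settings the monocyte median ran from -0.32 to 0.58 and was below 0 in 5. The neutrophil median ran from 0.08 to 0.91 and the stromal one from 0.08 to 0.90. The erythroid median ran from 0.46 to 1.29 and that of T and NK cells from 0.60 to 1.43. The part of these other marrow cells in the values of Sirt2 and of the other members was not tested.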

How the data were processed

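The deposited scanner files give the intensity of each spot, linear and already corrected for background and spatial trend by the authors' software, Agilent Feature Extraction 11.0.1.1 per the file headers, although the submitters' processing notes name version 9.1. The authors' deposited value table holds log2 values. The steps behind it, centring included, are not known from the sources used here, and it served only as an alternative. From the scanner files, control spots and 685 outlier spots were left out, and the processed signal was put on the log2 scale and set relative to its array's 75th percentile. Detection of a probe needed a majority of its spots well above background, and genes were averaged over the probes detected in both groups. Each member probe had 1 spot. Between repeat spots of 198 other probes the log2 difference had an SD of 0.15 (median). The ± values combine the software's error estimates of both spots. A probe detected on 1 array only got an approximate bound. For this, its level on the array without detection was raised to that array's lowest detected level if under it, and otherwise kept as measured. Probes were named through RefSeq accessions of the GRCm38.p6 table, 27115 of 39085 probes left after filtering having a name.

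The members and lists were chosen with earlier results of these data known. All members are named, and of each list up to 2 genes per direction past 2-fold or, with none, the highest and lowest. With 1 array per group no p-value was computed, and precision is limited by the number of arrays. Alternative settings were scaling on the median, quantile normalization, cyclic loess, detected-spot scaling (75th percentile over spots above background in both groups), normexp (offset 50, on the median spot and background signals), the authors' table, 3 other filters on dim probes, outlier spots kept and the brightest probe. Calculations were tested on simulated data. Python 3.11.15, numpy 2.4.6, pandas 2.3.3, R 4.3.3 and limma 3.58.1 were used.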

Additional observations from a re-analysis of the deposited data

How the results depend on the processing

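No paired analysis was possible because there was only 1 array per group, and leaving an array out was not possible either. Against 0 members at least 2-fold higher, there was 1 with cyclic loess and with detected-spot scaling (Sirt2), and 1 with no filter and with detection on at least 1 array (Sirt6, through its second probe). Against 0 lower there were 5 with median scaling. The median of the members, -0.42, was -1.03 with median scaling and -0.20 with detected-spot scaling. Its distance to the median of all genes, -0.25, was -0.42 with no filter and -0.56 with detection on at least 1 array. Against 512 higher genes overall there were 139 under median scaling, 806 under detected-spot scaling, 262 under normexp, 337 under the stricter filter, 2775 unfiltered and 3203 where detection on 1 array was enough. Against 177 lower genes there were 3306 under median scaling, 67 under detected-spot scaling, 60 under normexp, 350 under quantile normalization, 300 under cyclic loess, 430 in the authors' deposited table and 1751 unfiltered. Parp6 turned to 0.16 with no filter and with detection on at least 1 array, which admit its second probe. Median and detected-spot scaling shift all genes alike by construction, the filters change which probes enter, and for quantile normalization, the authors' table, normexp and cyclic loess the cause was not tested. The lowest detected signal was 46.4 on the SoNar-low array and 19.7 on the SoNar-high array. The second probes of Sirt4 and Sirt6 were not well above background in SoNar-low and have approximate bounds only.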
